A study of Mus musculus with 7 samples.

Results

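The accessible regions described here had a peak in untreated pancreatic epithelium and again at days 1 and 7 after caerulein, and no peak at day 28. Peaks of the 4 lists that shared at least 1 bp were merged on chromosomes 1 to 19 and X, and 5157 of the 223972 merged regions showed this pattern. They were 7.93% of the 65059 merged regions held by the untreated, day 1 and day 7 lists together, and the other 59902 had a day 28 peak as well. The regions were thus selected on the peak calls of all 4 libraries, and nothing is read from the pattern itself.

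The measurement was ATAC-seq, an assay of open chromatin by insertion of adapters with the Tn5 transposase, on epithelial cells purified from dissociated pancreata of wild-type C57BL/6J mice. There was 1 library from untreated mice and 1 each from mice harvested 1, 7 and 28 days after caerulein. The age of the mice, the number of mice behind a library, the caerulein dose and the markers used for purification are not stated in the labels used. The 3 samples of DCLK1-positive cells from Dclk1-DTR-ZsGreen mice were not analysed here. With 1 library per group no difference has a replicate check and no p-value was computed.

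Caerulein is an analogue of cholecystokinin that overstimulates acinar cells, the enzyme-secreting cells of the exocrine pancreas, and provokes an acute pancreatitis that resolves. During the injury acinar cells lose part of their specialised programme and take on duct-like features, and they regain the programme as the tissue recovers. A peak marks a promoter or a distal regulatory element at which the DNA is open in enough of the cells to rise above the background of the library. An element that is open in a small share of the cells, or only partly open in many, gives a low peak that a shallower library can miss.

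The labelled cell type was checked against marker genes by counting the regions nearest to each gene. As a base for such counts, the untreated, day 1, day 7 and day 28 lists held 140286, 164684, 145337 and 130149 peaks. Cdh1, which encodes E-cadherin, had 33, 11, 20 and 34 regions in the lists of untreated epithelium and days 1, 7 and 28, and the epithelial surface gene Epcam had 18, 7, 12 and 15. Markers of other cells were present too. Cdh5, which encodes the endothelial VE-cadherin, had 11, 9, 9 and 1 regions. Other endothelial genes fell less or not at all. Pecam1 had 19, 18, 18 and 12 regions, and Kdr had 5, 14, 11 and 7, more at day 28 than untreated. The collagen gene Col1a2 had 8, 35, 21 and 11, and the leukocyte gene Ptprc had 4, 10, 4 and 2. In such bulk libraries fewer cells of a type and lower accessibility in each of its cells cannot be told apart.

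The libraries differed in depth and in enrichment. In the order untreated, day 1, day 7, day 28, the background pileup, which follows depth, was 5.07, 5.35, 2.72 and 2.52, and no list contained a pileup below 14, 14, 10 and 9. The lowest fold enrichment in each list was 2.47, 2.36, 2.95 and 2.84. In the regions of all 4 lists the median of fold minus 1, here called the excess, was 7.40, 16.6, 15.1 and 11.5. Fold enrichments are the authors' own values at a peak's summit and rank peaks within a list. The libraries' enrichment differs, so a level is compared between lists only after division by that list's median excess, and raw folds are printed as the values of each list.

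Few of the regions that were missing at day 28 lay on promoters. This count is not matched for peak height, and gene ends are compared among regions of like height below. RefSeq promoter windows, each running from 250 bases before to 50 bases after an annotated start on GRCm38, were overlapped by 186 of the 5157 regions, at 192 genes of which 120 code for protein. The promoter table used holds windows for 17274 of 21631 protein-coding genes, so these counts are a lower limit. At 55 of these 120 the window lay at the 5′ end of the gene span, and 30 of the 120 had another annotated start inside a region of all 4 lists. The sequences of 6 such windows are printed because they show the range from a gene's only annotated start to a secondary start, and from an SP/KLF match in GC-rich sequence to AP-1 matches. They were chosen after their values were seen. Each is written 5′ to 3′ along the gene's strand, and capitals mark matches, on either strand, to 1 of 11 motifs searched.

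Ednrb promoter, chr14:103843652-103843951, minus strand: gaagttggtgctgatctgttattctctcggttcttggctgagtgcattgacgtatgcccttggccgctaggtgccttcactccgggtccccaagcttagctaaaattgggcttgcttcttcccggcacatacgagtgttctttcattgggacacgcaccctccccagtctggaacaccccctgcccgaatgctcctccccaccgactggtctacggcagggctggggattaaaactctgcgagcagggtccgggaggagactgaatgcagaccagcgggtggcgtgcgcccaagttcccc
Esrrg promoter, chr1:187608756-187609055, plus strand: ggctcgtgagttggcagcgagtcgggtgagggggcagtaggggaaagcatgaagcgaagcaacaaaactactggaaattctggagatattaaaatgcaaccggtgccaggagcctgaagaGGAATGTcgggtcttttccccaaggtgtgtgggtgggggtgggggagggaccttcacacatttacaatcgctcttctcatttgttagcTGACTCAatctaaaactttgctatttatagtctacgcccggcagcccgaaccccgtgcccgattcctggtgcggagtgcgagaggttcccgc
She promoter, chr3:89831120-89831419, plus strand: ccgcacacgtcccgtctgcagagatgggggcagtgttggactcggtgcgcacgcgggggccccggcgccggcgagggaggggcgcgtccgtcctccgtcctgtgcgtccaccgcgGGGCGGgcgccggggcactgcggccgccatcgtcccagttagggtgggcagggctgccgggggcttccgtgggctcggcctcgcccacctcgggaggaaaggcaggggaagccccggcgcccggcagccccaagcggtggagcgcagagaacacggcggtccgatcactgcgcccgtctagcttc
Hdac7 promoter, chr15:97814814-97815113, minus strand: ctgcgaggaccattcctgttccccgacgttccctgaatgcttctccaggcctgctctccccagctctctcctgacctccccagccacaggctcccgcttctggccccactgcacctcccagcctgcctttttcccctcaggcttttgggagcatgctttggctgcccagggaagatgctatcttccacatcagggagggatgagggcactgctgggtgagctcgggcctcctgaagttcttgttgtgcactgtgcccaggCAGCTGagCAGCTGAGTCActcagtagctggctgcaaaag
Mef2c promoter, chr13:83573357-83573656, plus strand: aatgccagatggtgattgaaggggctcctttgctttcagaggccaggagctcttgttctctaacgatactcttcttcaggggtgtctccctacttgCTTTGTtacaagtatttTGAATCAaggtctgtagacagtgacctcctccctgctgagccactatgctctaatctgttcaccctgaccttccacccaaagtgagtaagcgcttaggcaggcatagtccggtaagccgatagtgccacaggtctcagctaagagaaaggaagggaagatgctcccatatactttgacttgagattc
Tnfaip3 promoter, chr10:19011914-19012213, minus strand: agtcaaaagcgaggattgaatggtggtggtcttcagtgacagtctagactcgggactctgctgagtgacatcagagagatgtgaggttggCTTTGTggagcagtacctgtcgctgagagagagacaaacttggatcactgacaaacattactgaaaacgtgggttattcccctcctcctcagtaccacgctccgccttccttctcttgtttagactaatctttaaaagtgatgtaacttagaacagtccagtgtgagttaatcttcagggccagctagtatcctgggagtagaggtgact

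Ednrb encodes the endothelin B receptor, and this window is its only start in the table. Its region had a fold of 6.76 in the untreated list, 12.4 at day 1 and 8.06 at day 7, and the nearest day 28 peak was 54891 bp away. None of the 11 motifs matched. A second Ednrb region at chr14:103816676-103817453, inside the gene, also lacked a day 28 peak and had folds of 8.40, 14.3 and 12.4.

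Esrrg encodes the orphan nuclear receptor estrogen-related receptor gamma. Its window lay 496 bp from the gene's 5′ end and had folds of 6.43, 12.8 and 9.94, with the nearest day 28 peak 39725 bp away. It held a TEAD match, GGAATGT, and an AP-1 match. Of the 4 annotated Esrrg starts, another 1 lay in a region of all 4 lists. The window of She, an SH2-domain adaptor gene, lay at the gene's 5′ end and was its only start. It had a GC content of 75.7%, an SP/KLF match and folds of 7.41, 4.73 and 9.40, and the nearest day 28 peak lay 26423 bp away.

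The other 3 windows were secondary starts. That of Hdac7, a class IIa histone deacetylase gene, lay 29639 bp from the gene's 5′ end and had folds of 4.45, 20.5 and 6.45. Its run of capitals joins an E-box match, CAGCTG, that overlaps an AP-1 match, and a separate E-box match lies just before it. The Mef2c window lay 69590 bp from the 5′ end of the gene, which encodes a MADS-box factor of muscle and endothelium. Its folds were 3.62, 7.72 and 5.64. The Tnfaip3 window lay 3447 bp from the gene's 5′ end and had folds of 2.97, 4.88 and 8.33. Tnfaip3 encodes A20, which restrains NF-kB signalling, and its other start lay in a region of all 4 lists.

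Promoter windows with at least 150 bases inside a region numbered 163 among the regions missing at day 28, which was 1.06% of the 15445 windows so covered in the untreated, day 1 and day 7 lists. Their sequence resembled the average annotated start more than the starts that stayed in all 4 lists. Regions missing at day 28 had lower peaks than regions of all 4 lists, and the windows were not matched for peak height. The part of height in these contrasts was not tested. The median GC content was 54.0% against 61.3% in the 4-list windows and 53.0% over all 32585 windows of the table. The median number of CpG dinucleotides was 8, against 20.5 and 7. The table holds 0 windows on chromosome 18, where 162 of the 5157 regions lie.

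Motif matches were counted on both strands of the same windows, again without matching for peak height. AP-1 letters (TGANTCA) were present in 13.5% of the windows missing at day 28 (exact 95% interval 8.66 to 19.7), in 5.63% of the 4-list windows and in 7.85% of all windows. TEAD letters (GGAATGT) were present in 7.36% (interval 3.86 to 12.5), 2.84% and 3.87%, and RUNX letters (TGTGGTT) in 6.13%, 3.44% and 5.29%. SP/KLF letters (GGGCGG), which contain a CpG, were present in 35.6%, 63.5% and 35.9%. So the SP/KLF share lay near that of the average start. The AP-1, TEAD and RUNX shares were above both other sets, but only the AP-1 interval lay above both of their values, and with windows covered whole (12.8%, 6.56 to 21.7) it included the share of all windows.

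The remaining motifs are given in the same order. SOX letters (ACAAAG) were present in 19.0%, 12.9% and 18.8%, E-box letters (CAGCTG) in 19.0%, 16.1% and 16.4%, and ETS letters (ACNGGAAG) in 7.98%, 9.40% and 8.20%. The SOX and E-box shares were also above both other sets, with intervals (13.3 to 25.9 for each) that include the share of all windows. GATA letters (AGATAA) were present in 6.75%, 5.77% and 11.2%, and forkhead letters (TGTTTAC) in 3.07%, 2.60% and 3.67%. NR5A letters (CAAGGTCA) were present in 0.613%, 1.03% and 1.53%, and the HNF1 motif matched 0 of the 163 windows, which allows a share of up to 2.24%. A match describes the letters and shows neither binding nor a cause, and intervals cover counting error only.

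The regions missing at day 28 also overlapped the hairpins of 12 miRNA genes, in whole or in part. This was so for 11 of the 5157 regions, while 157 of the 59902 regions of all 4 lists overlapped a hairpin. Both shares are small, and no difference between them is read from these counts. The miRNAs shown are 2 with a hairpin wholly inside its region, 2 that share a seed, and 2 from a single region. Sequences are the mature RNAs of RefSeq with the seed, bases 2 to 8, in capitals.

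mmu-miR-34a-5p: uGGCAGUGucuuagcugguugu
mmu-miR-34a-3p: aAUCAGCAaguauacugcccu
mmu-miR-6990-5p: cCCAGGGUgagucagggcucu
mmu-miR-125a-5p: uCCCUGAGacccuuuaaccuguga
mmu-miR-6367: uCCCUGAGacccugguucagga
mmu-miR-487b-5p: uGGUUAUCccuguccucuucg
mmu-miR-539-5p: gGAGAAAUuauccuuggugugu

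The Mir34a hairpin, at chr4:150068454-150068555, lay whole inside a region whose fold was 3.13 in the untreated list, 46.6 at day 1 and 10.5 at day 7. miR-34a is a p53-induced miRNA, and the nearest day 28 peak was 4403 bp from its region. The Mir6990 hairpin lay inside a region within Esrra, the estrogen-related receptor alpha gene, with folds of 6.59, 39.2 and 27.9. Both regions were higher at day 1 than in the untreated list on the relative scale as well.

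miR-125a-5p and miR-6367 were the only pair among the 18 mature sequences to share a seed, CCCUGAG, which leaves 17 seeds. Both of their regions stood close to a day 28 peak, at 131 and 63 bp, and the Mir125a region was low throughout, with folds of 4.12 in the untreated list, 3.31 at day 1 and 3.76 at day 7. The hairpins of miR-487b and miR-539 shared 1 region of an imprinted miRNA cluster on chromosome 12, with folds of 3.13, 12.1 and 4.03. That region was 21010 bp from any day 28 peak.

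Across all 5157 regions the peaks were low in the untreated list, and a part of them were high at day 1. The median fold was 3.79 in the untreated list (quartiles 3.30 and 4.28, highest 18.3), 7.41 at day 1 (4.57 and 15.1, highest 105) and 5.91 at day 7 (4.57 and 8.33, highest 37.6). Regions of all 4 lists had medians of 8.40, 17.6 and 16.1. In each of these lists the median of the members was thus below that of the regions in all 4.

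**Figure D1:**
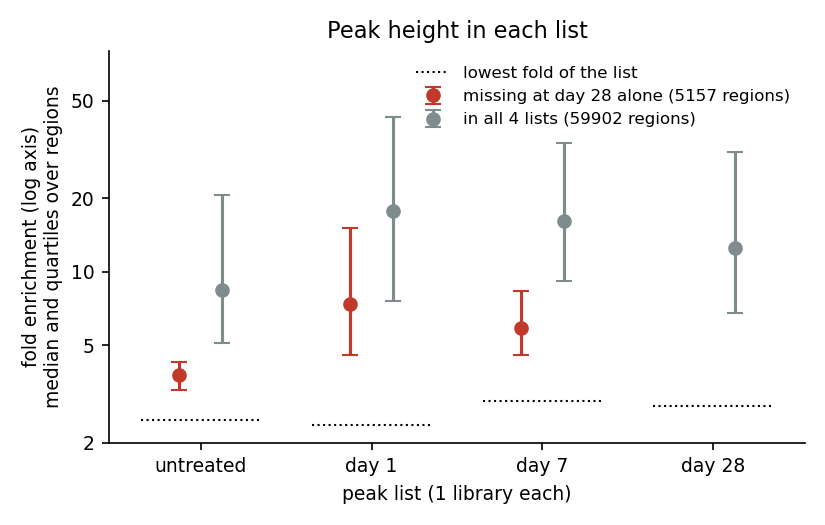
Fold enrichment (log axis) of the regions missing at day 28 alone (red, 5157 regions) and of the regions in all 4 lists (grey, 59902 regions) in each peak list, 1 library each. Points are medians, bars run between the quartiles over regions, and dotted lines mark the lowest fold of each list: the red medians are 3.79, 7.41 and 5.91, below the grey ones of 8.40, 17.6 and 16.1.

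Within each list the median of these regions lay at percentile 26.8 of all untreated peaks, 56.1 of the day 1 peaks and 41.4 of the day 7 peaks. The regions were also narrow and simple. Their median merged width was 521 bp against 996 bp for regions of all 4 lists, and 81.0% were made of a single peak from each list, against 54.5%. The highest peak in each region had a median width of 200 bp in the untreated list, 448 bp at day 1 and 292 bp at day 7.

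Divided by each list's median excess, the members had medians of 0.377 in the untreated list, 0.385 at day 1 and 0.325 at day 7, where 1 is the median of the regions in all 4 lists. On this relative scale the 3 medians were close to each other. The relative excess passed 1 in 37 regions of the untreated list, in 1102 at day 1 and in 155 at day 7, and a single region, that of Brip1, passed it in all 3. Day 1 gave the highest relative excess in 45.4% of the regions, the untreated list in 40.6% and day 7 in 14.0%, against 30.4%, 52.2% and 17.4% in regions of all 4 lists.

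How often a region lacked a day 28 peak followed its height in the other lists. The mean relative excess in those lists, multiplied by the day 28 median excess, puts a region on the scale of the day 28 library. The result, here called the scaled fold, is the fold at that mean level. A high day 1 peak alone can raise the scaled fold. Its median over the members was 5.51 (quartiles 4.43 and 7.65), which corresponds to a day 28 pileup of 18.4 against the list's lowest of 9. The lowest scaled fold of a member was 3.14, and no held region of any kind was below the day 28 floor of 2.84. The lowest folds and median excesses of the 3 lists already put any held region close to or above that floor. So no conclusion is drawn from it on whether a member could have been called at day 28. In 2411 members (46.8%) it was at least 2 times that floor. Taking the lowest of the 3 lists in place of their mean left 4540 members (88.0%) at or above the floor.

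Of the held regions with a scaled fold between 2.84 and 4, 637 of 1328 (48.0%) had no day 28 peak. The share was 31.0% (1412 of 4559) between 4 and 5, 11.2% between 6 and 8, 4.71% between 10 and 15, and 0.855% (63 of 7368) between 20 and 30. Above 30 it was 0.0141% (2 of 14192), and those 2 regions lie in Rbm20 and near Ccn4. The level used here is made from the lists that chose the regions, and these shares are a description.

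**Figure D2:**
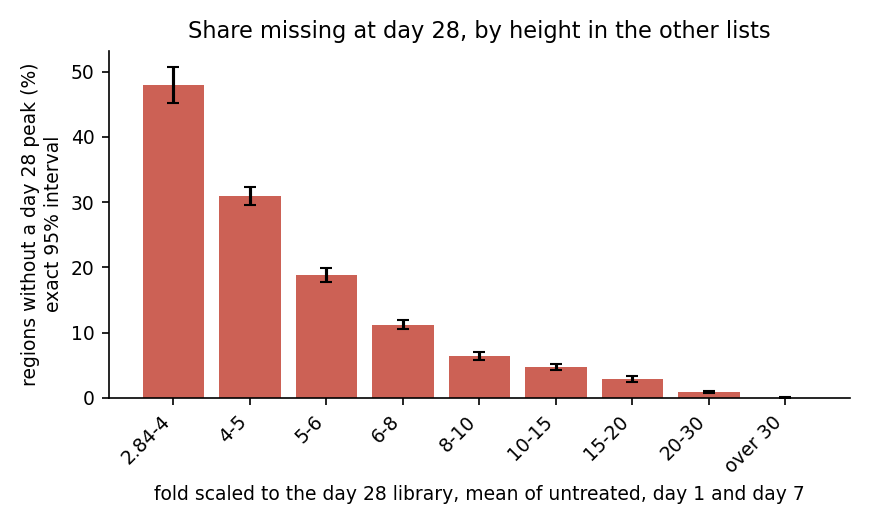
Share of the regions held by the untreated, day 1 and day 7 lists that had no day 28 peak (percent, bars, from 0) in 9 classes of scaled fold, with exact 95% intervals that cover counting error only. The share falls from 48.0% in the lowest class to 0.0141% in the highest.

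At the edge of the rule, members beside a day 28 peak were lower at days 1 and 7 than regions of all 4 lists with a low day 28 fold. The first set is defined by distance and the second by height, so they are not the sides of a single threshold. There were 61 members with a day 28 peak within 50 bp, the nearest at 1 bp, and their median folds were 3.62 in the untreated list, 4.41 at day 1 and 4.57 at day 7. Just outside, 532 regions of all 4 lists had a day 28 fold under 3.5, with medians of 3.79, 7.56 and 6.45. A day 28 peak lay within 500 bp of 932 members (18.1%), the median distance was 2946 bp, and 1221 members (23.7%) had none within 10 kb.

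The 1102 members with a day 1 relative excess above 1 differed from the other 4055 in several respects. Their median folds were 3.79 in the untreated list, 29.6 at day 1 and 9.67 at day 7, against 3.79, 5.99 and 5.37. The untreated medians were thus equal. The day 1 high members were wider, with a median of 832 bp against 456 bp, and 3.63% against 8.11% of them lay within 1 kb of a gene end. A larger share, 18.6% against 12.1%, lay beyond 50 kb of any gene, and 6.44% against 21.2% had a day 28 peak within 500 bp. The day 1 library has the highest background pileup of the 4, and the part of depth in these values was not tested.

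**Figure D3:**
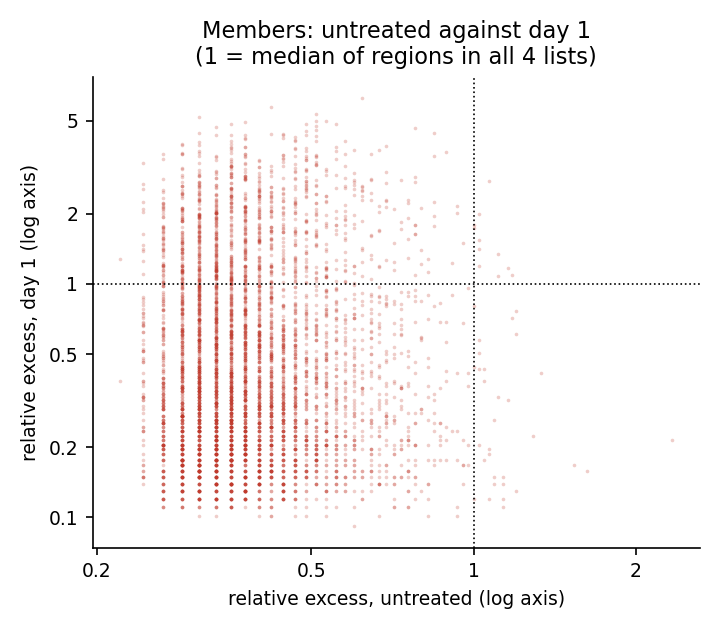
Relative excess of each of the 5157 members in the untreated list (x axis) against day 1 (y axis), both on log axes, where 1 (dotted) is the median of the regions in all 4 lists. Of the points, 1102 lie above 1 at day 1 and 37 above 1 in the untreated list; columns of points arise because untreated pileups are whole numbers.

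Slit1, which encodes a secreted ligand of Robo guidance receptors, had 3 day 1 high members. In all, 5 of its 7 held regions lacked a day 28 peak. A region of 3314 bp inside the gene, chr19:41673954-41677267, had folds of 7.25 in the untreated list, 75.0 at day 1 and 26.6 at day 7. Another at chr19:41746702-41748194, 330 bp outside the gene span, had 5.11, 57.8 and 26.6, and the nearest day 28 peak was 15771 bp from it. Slit3, a gene of the same family, had 6 of 37, of which 3 were high at day 1. Further genes with 3 day 1 high members included Ptpre, Gli3, which encodes a Hedgehog pathway transcription factor, Col27a1, Tiam1, Creb5 and Adamts16.

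The members with the highest scaled fold were all of this kind. The highest, 35.1, was inside Rbm20, a splicing factor gene, at chr19:53731524-53733237, with folds of 5.60 in the untreated list, 105 at day 1 and 32.0 at day 7. The next, 33.8, lay 15290 bp from Ccn4, which encodes a secreted matricellular protein, at chr15:66875529-66876584, with folds of 4.12, 96.4 and 37.6. Both had a day 1 peak among the highest of all members. In the untreated list the Rbm20 region was above the members' upper quartile of 4.28 and the Ccn4 region was below it. The nearest day 28 peaks were 7600 and 1178 bp away.

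A region 140267 bp from Hmga2, an architectural chromatin protein gene, had folds of 4.78, 90.1 and 17.5. It was not alone, since 3 more members had Hmga2 as the nearest gene, and those at chr10:120624007-120624700 and chr10:120627750-120628518 had day 1 folds of 73.6 and 61.1. A region 11362 bp from Kdr, the VEGF receptor 2 gene, at chr5:75990135-75990913, had folds of 3.79, 73.6 and 26.3. The other 8 of the 12 highest were the named region in Slit1 and regions at Trcg1, Rdh8, Prickle2, Gm36722, Plekhb2, Trabd2b and Bnc2, with untreated folds from 3.30 to 7.25. None of the 12 lay within 1 kb of a gene end, 4 lay beyond 50 kb of any gene and 9 had their nearest day 28 peak more than 2 kb away.

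Ranked instead by the lowest of the 3 folds, the strongest members had moderate peaks at every time. The top region lay inside Nadk, the NAD kinase gene, at chr4:155582224-155582758, and had folds of 9.72 in the untreated list, 19.2 at day 1 and 11.0 at day 7. A region 1454 bp from Dusp6, which encodes a phosphatase that inactivates ERK, at chr10:99268464-99269894, had 9.89, 11.2 and 9.40, and a day 28 peak stood 457 bp away. Its relative excess was 1.20, 0.612 and 0.556, so the Dusp6 region stood highest in the untreated list.

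Others of these 12 regions lay in or near Ccdc188, Cwc27, Clrn3, Plekhg4, Ckap4, Brip1, Mgat5, Ednrb and Tmem67, with untreated folds between 8.24 and 9.56. The region 35568 bp from Brip1, a DNA helicase gene, had folds of 8.57, 34.2 and 18.8 and its nearest day 28 peak 26710 bp away. The region inside Mgat5, which encodes an enzyme of N-glycan branching, had 8.40, 30.9 and 8.86, with the nearest day 28 peak 12306 bp away. Of the 12, 7 had no day 28 peak within 2 kb and 0 lay within 1 kb of a gene end.

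Most members lay away from gene ends. Within 1 kb of an annotated end of a protein-coding gene span there were 369 members (7.16%), against 21.7% of the regions in all 4 lists. Tall regions are more often at gene ends, and between the quartiles of the members' scaled fold, where 16.8% of 15339 held regions were members, the shares were 7.36% (190 of 2580) and 8.76% (1118 of 12759). So most of the gap to the 4-list regions was absent among regions of like height. Inside a gene span lay 2875 members (55.7%), a further 1585 (30.7%) lay outside but within 50 kb, and 697 (13.5%) lay farther away, the last against 9.81% of the 4-list regions. Exons and introns were not separated, because the table used holds gene spans only.

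By chromosome, the share of held regions without a day 28 peak ran from 6.88% on chromosome 15 to 9.01% on chromosome 1 among the autosomes and was 4.83% (47 of 973) on X. Of the members, 4020 (78.0%) had no member as a neighbour among the held regions, and 1137 (22.0%) stood in runs of 2 or more. Members were 7.93% of all held regions, and whether they group more than that share implies was not tested. The longest run of neighbouring members was 7 regions at chr2:178708668-179391616, a gene-poor stretch whose nearest genes were Cdh26 and 4930591A17Rik. In this run the untreated folds were between 3.13 and 6.59, and day 1 folds between 3.78 and 32.9. A run of 6 lay inside Agap1 at chr1:89730533-89879993, and runs of 5 lay inside Arhgef3 at chr14:27234299-27271826 and near Cemip2 at chr19:21863284-21942764.

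The 4460 members with a gene within 50 kb were linked to 3233 of the 15246 genes that had any held region, and 2415 of these genes had only 1. Agap1, which encodes a GTPase-activating protein for ARF proteins, had the most, 10 of its 38 held regions. Their untreated folds ran from 3.13 to 5.44. The most open at day 1, chr1:89734805-89735626, had folds of 3.79, 48.1 and 15.3, and the nearest day 28 peak was 45421 bp away.

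Sorcs2, a Vps10-domain sorting receptor gene, had 9 of 25, and its strongest member, chr5:36379811-36380726, had folds of 5.27, 33.6 and 14.8. The genes with 7 were Fam107b (of 14), Afap1l2 (of 20), Arhgef3 (of 26), Trabd2b (of 30), Mcc (of 31), Nav2 (of 33) and Rbms3 (of 38). Those with 6 were the corepressor gene Tle3, the autophagy gene Uvrag, the basement membrane collagen gene Col4a2, Zcchc24, Slit3 and the Src-family kinase gene Fyn. Afap1l2 encodes an actin filament adaptor. Long genes hold many regions, and no enrichment was tested.

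Among the 1840 genes with at least 8 held regions, 719 (39.1%) had no member and the median share was 7.14%. Ptpre, a receptor-type tyrosine phosphatase gene, had the highest share, 5 of 9. Its 5 members had untreated folds of 3.30 to 7.08, 3 of them had day 1 folds above 20 (20.5, 22.4 and 23.2), and the other 2 had 6.15 and 6.30. After Ptpre and Fam107b came Dmrta2, Enpp6 and Fbxl17 with 4 of 8, Col13a1, Mgat5 and Trim25 with 4 of 9, and Btbd9 with 5 of 12.

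Fam107b and Cdh5 showed the pattern at single loci. In the window chr2:3674812-3812142 around Fam107b the 4 lists, in order of time, held 21, 73, 40 and 11 peaks, and the highest fold of each was 26.7, 63.3, 68.8 and 44.0. The 7 members were low, with folds of 3.13 to 4.45 in the untreated list, 4.41 to 7.72 at day 1 and 3.76 to 11.3 at day 7. They lay 1003 to 20816 bp from the nearest day 28 peak. The tallest Fam107b peaks were kept at day 28, and so were some low ones.

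At Cdh5, in chr8:104071613-104174504, the lists held 10, 11, 10 and 2 peaks with highest folds of 9.06, 33.4, 35.2 and 11.4. Of the 4 regions held for Cdh5 in untreated, day 1 and day 7, 3 lacked a day 28 peak. Their folds were 3.30, 7.25 and 8.86 at chr8:104107945-104108497, 4.45, 3.78 and 3.76 at chr8:104110836-104111173, and 2.97, 5.20 and 8.86 at chr8:104146313-104146674. A further region 220808 bp from Cdh5 was a member as well, outside the 50 kb used for links.

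**Figure D4:**
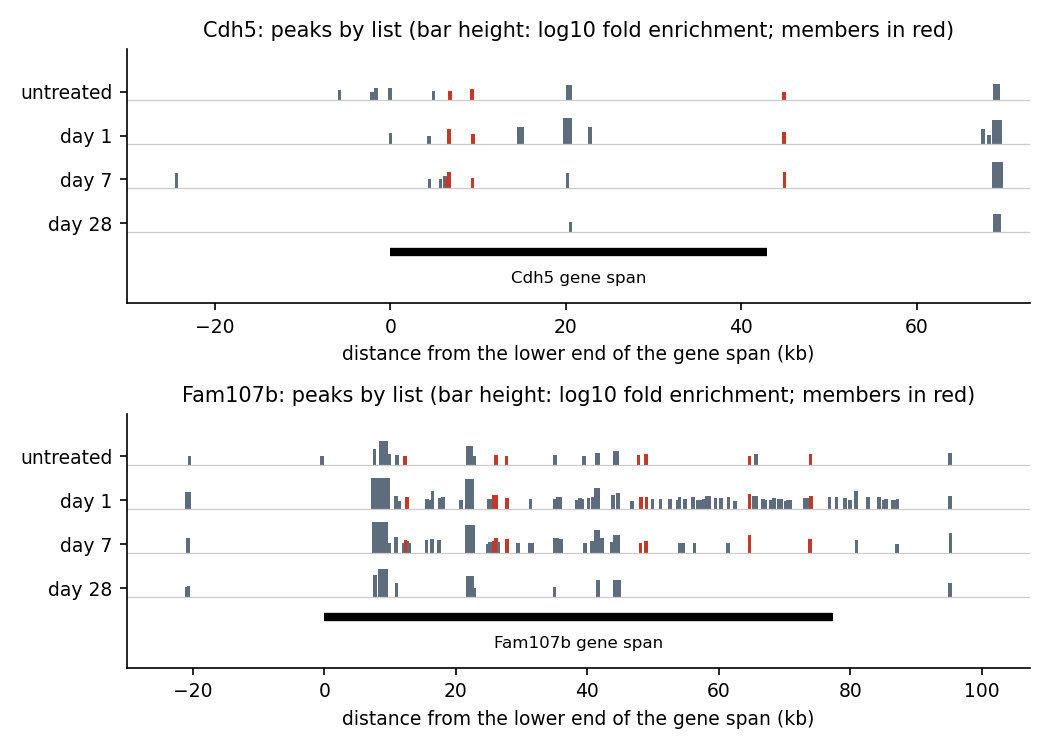
Peaks of each list around Cdh5 (top) and Fam107b (bottom), by distance from the lower end of the gene span in kb. Bar height is the log10 of fold enrichment, narrow peaks are drawn at a minimum width, red bars belong to regions missing at day 28 alone and the black bar is the gene span: the Cdh5 window holds 10, 11, 10 and 2 peaks and the Fam107b window 21, 73, 40 and 11.

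Gene lists were then read by role. Over all genes, 7.63% of the 58485 held regions with a gene within 50 kb had no day 28 peak. The 4 endothelial lists together had 31 of 235 (13.2%, exact 95% interval 9.14 to 18.2), at 18 of 46 genes. Fewer endothelial regions at day 28 were known from these data before the lists were made, so this count is not independent evidence of its direction. The median share per gene was 0 for them and for all genes. Between the quartiles of the members' scaled fold the endothelial share was 17 of 60 (28.3%), against 16.6% over all genes. Where a −log10 q of at least 5 was required in the untreated, day 1 and day 7 lists, it was 17 of 209 (8.13%), against 5.18%.

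The endothelial transcription factor genes, whose ETS, SOX and GATA family products set endothelial identity, had 10 of 76. Sox18 had 2 of 3, of which the region at chr2:181670335-181671858 lies within 365 bp of a gene end and had folds of 4.12 in the untreated list, 5.83 at day 1 and 5.10 at day 7. Mef2c had 3 of 7, including chr13:83571945-83572647 with 12.4, 3.78 and 5.91, which was highest in the untreated list. Erg and Gata2 had 2 of 7 each. Ets1, with 20 held regions, and Nr2f2, with 12, had 0.

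The endothelial receptor genes had 8 of 61. Acvrl1, which encodes the BMP receptor ALK1, had 3 of 9 within the gene, and the tallest, chr15:101132850-101133828, had folds of 2.97, 21.4 and 6.18. Kdr had 2 of 4, the region given above and another, chr5:75922619-75923119, with 5.44, 15.3 and 10.2. The VEGF receptor 1 gene Flt1 had 2 of 6, with untreated folds of 4.94 and 5.93, and Notch4 had 1 of 7. On the relative scale both Kdr regions were highest at day 1 and both Flt1 regions in the untreated list.

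The endothelial junction and surface genes had 11 of 64, the highest share of the 4 endothelial lists (17.2%, interval 8.90 to 28.7). Besides Cdh5, the adhesion gene Pecam1 had 2 of 12 and the phosphatase gene Ptprb 2 of 5. The tallest was in Adgrl4, an adhesion G protein-coupled receptor gene, at chr3:151445877-151446644, with folds of 4.45, 53.3 and 19.1. A region of Ecscr within 838 bp of a gene end had 6.59, 3.62 and 8.33. The secreted and matrix genes had 2 of 34, at Vwf, which encodes von Willebrand factor (9.06, 3.31 and 5.37), and Egfl7 (4.78, 2.99 and 4.03).

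Of the 31 endothelial regions, 3 were of the day 1 high kind, which made up 21.4% of all members. For the 4 endothelial lists together, the share in each of the other patterns was below that of all genes. Missing in the untreated list alone were 10.5% of their held regions against 11.5% over all genes, missing at day 1 alone 11.3% against 14.9%, and missing at day 7 alone 1.45% against 2.77%. The receptor genes by themselves had 14.5% and 15.9% missing in the untreated list alone and at day 1 alone. The difference between patterns was not tested. The total number of regions linked to the endothelial genes was 442, 512, 412 and 320 in the untreated, day 1, day 7 and day 28 lists. All peaks of these lists numbered 140286, 164684, 145337 and 130149, and how far region counts follow list size was not tested. Genes of VEGF and angiopoietin ligands, which signal to endothelium and are made by many cells, had 0 of 48, which allows a share of up to 7.40%.

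**Figure D5:**
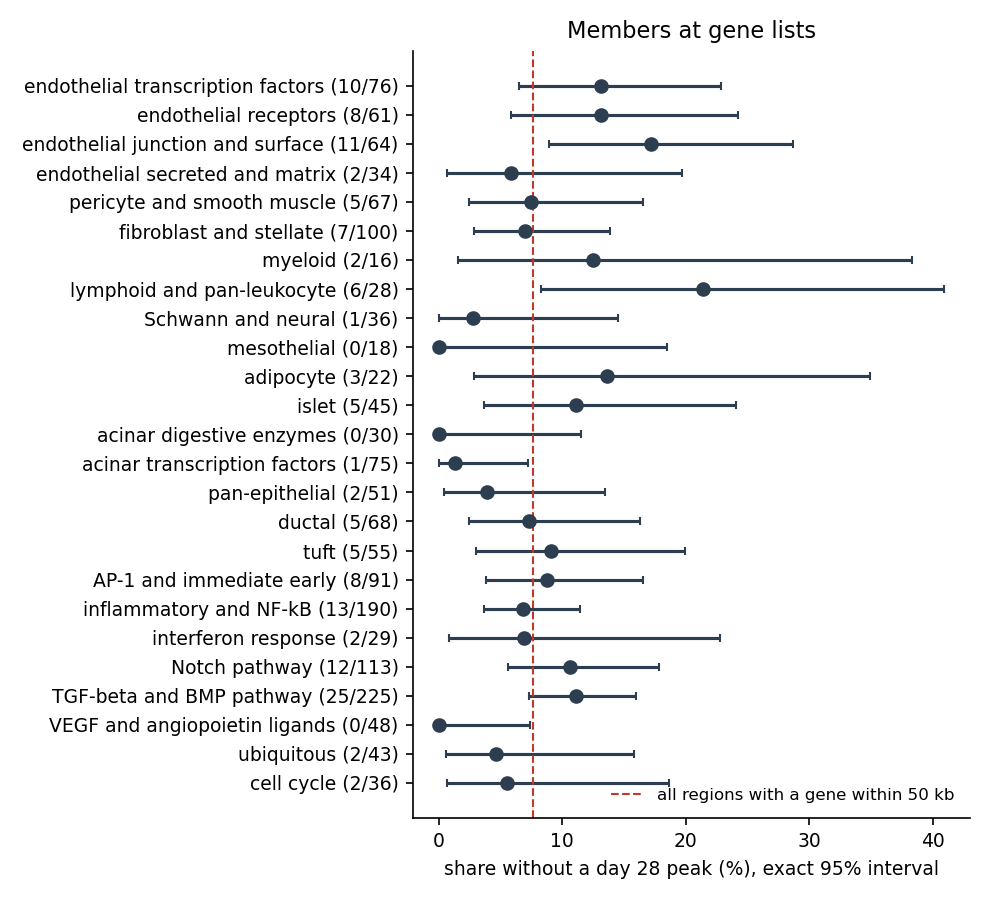
Share of the regions held by the untreated, day 1 and day 7 lists that had no day 28 peak (percent, x axis), for 25 gene lists, with members and held regions in brackets and exact 95% intervals that cover counting error only. The dashed line marks the 7.63% of all regions with a gene within 50 kb; endothelial junction genes lie at 17.2% and acinar digestive enzyme genes at 0.

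Genes of the acinar lineage had 1 member. The digestive enzyme genes had 0 of 30, which allows up to 11.6%, and the acinar transcription factor genes had 1 of 75, a region inside Foxp1, chr6:99484221-99484709, with folds of 4.12, 14.0 and 5.64. Together this was 1 of 105 (0.952%, interval 0.0241 to 5.19). Held acinar regions were tall, with a median scaled fold of 15.6, and between the quartiles of the members' scaled fold 1 of 19 (5.26%) was a member, against 16.6% over all genes. The acinar genes were instead often missing at day 1 alone, in 47.2% of the regions that the other lists held, against 14.9% over all genes. This was not particular to them, since pan-epithelial genes had 38.8% and ductal genes 25.0%. Regions of the acinar genes numbered 431, 199, 257 and 504 in the 4 lists.

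Other epithelial lists lay near or below the share over all genes. Pan-epithelial genes had 2 of 51, a region 37309 bp from Epcam and 1 near Grhl2. Ductal genes had 5 of 68, at Sox9, Slc4a4 and Krt7. The Sox9 regions, near the gene of a duct and progenitor factor, had their highest relative excess at day 1, with folds of 3.30, 40.0 and 8.86 at chr11:112794596-112795094 and 3.30, 17.2 and 4.57 at chr11:112800569-112801343. Tuft cell genes had 5 of 55, among them 2 of 12 inside Dclk1, with day 1 folds of 13.4 and 33.2.

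Lists of other stromal and immune cells had wide intervals. Lymphoid and pan-leukocyte genes had 6 of 28 (21.4%, interval 8.30 to 41.0), of which 2 lay at Runx3 and 1 each at Ptprc, Cd79a, Vav1 and Lcp2. The region near Ptprc had folds of 3.30, 17.2 and 9.94. Myeloid genes had 2 of 16 (12.5%), at Cx3cr1 and S100a9. Pericyte and smooth muscle genes had 5 of 67 (7.46%), with 2 inside Pdgfrb, and fibroblast and stellate genes had 7 of 100 (7.00%), with 2 each at Dcn and Fbln1.

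A fibroblast region across Col1a1, chr11:94945663-94949630, was 3968 bp wide, with folds of 3.62, 21.7 and 6.72. Islet genes had 5 of 45, adipocyte genes 3 of 22 (Adipoq, Fabp4 and Pparg), Schwann and neural genes 1 of 36 and mesothelial genes 0 of 18. Of the lists of other cell types, the interval lay wholly above 7.63% for endothelial junction and for lymphoid and pan-leukocyte genes, and included it for the rest. These intervals are not matched for peak height and count regions of the same gene separately, so they are not read as tests. Held lymphoid and pan-leukocyte regions had a median scaled fold of 8.02. Between the quartiles of the members' scaled fold 2 of 8 of them were members, against 16.6% over all genes. With 8 regions no difference is read from this. For endothelial junction genes the count was 7 of 20. Regions of the fibroblast and stellate genes numbered 117, 338, 220 and 142. The part of these other cells in the missing regions was not tested.

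Among signalling pathways the TGF-beta and BMP genes had 25 of 225 (11.1%, interval 7.32 to 16.0), and 15 of 59 (25.4%, against 16.6% over all genes) between the quartiles of the members' scaled fold. The interval includes the 7.63% of all genes. With a −log10 q of at least 5 in the lists that held them it was 12 of 197 (6.09%, against 5.18%), and with links within 1 kb it was 11 of 149 (7.38%, against 7.03%). This pathway signals from ligands through receptor kinases to SMAD transcription factors, with inhibitory SMADs in feedback. Of the ligand genes, Tgfb2 had 2 of 11, and Bmp4 and Bmp6 had 1 each. Of the receptor genes, Tgfbr2 had 2 of 12, Tgfbr3 2 of 34 and Bmpr2 1.

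Of the genes in this list, Smad3, Smad6 and Smad7 had the most members, while Smad1, Smad2 and Smad4 had 0 of 13, 0 of 2 and 0 of 6. Smad3, a receptor-activated SMAD, had 6 of 45 with low folds, from 2.80 to 6.92 in the untreated list, 3.31 to 5.99 at day 1 and 3.22 to 5.37 at day 7. The inhibitory Smad6 had 5 of 28, with day 1 folds of 2.84 to 13.2, and the inhibitory Smad7 had 3 of 17, of which 1 reached 48.7 at day 1. The target gene Id2 had 2 of 9. Of the 25 regions, 1 was of the day 1 high kind, against 21.4% of all members. The Notch pathway had 12 of 113 (10.6%, interval 5.61 to 17.8), with 3 of 9 at the ligand gene Jag1, 3 of 21 inside the coactivator gene Maml2 and 2 of 20 inside the receptor gene Notch2. The Maml2 regions reached day 1 folds of 17.3 to 32.8.

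Injury-response genes lay close to the share over all genes, and several of their members were tall at day 1. AP-1 and immediate early genes had 8 of 91 (8.79%), with 2 of 3 at Fosl1, which encodes the FOS-family factor FRA1. The region 2566 bp from Fosl1, chr19:5444625-5446009, had folds of 3.62, 63.7 and 14.0. Inflammatory and NF-kB genes had 13 of 190 (6.84%), of which 7 were of the day 1 high kind, against 21.4% of all members. Both held regions of the chemokine gene Ccl20 were members, with folds of 4.61, 46.2 and 11.6 at chr1:83091042-83091862 and 3.30, 29.1 and 8.86 at chr1:83095966-83096918.

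A region 18446 bp from the chemokine gene Cxcl12 had folds of 3.13, 32.5 and 12.9, a region 35630 bp from Cxcl1 had 3.95, 38.1 and 10.7, and a region 21432 bp from Nfkb1 had 3.79, 30.1 and 6.45. These regions shared a low untreated peak and a high day 1 peak. Interferon response genes had 2 of 29, cell cycle genes 2 of 36 and ubiquitous genes 2 of 43, each below the share over all genes with an interval that includes it.

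The closest other patterns were regions missing from a single other list. Missing in the untreated list alone were 8586 regions (12.5% of those the other 3 lists held), at day 1 alone 10681 (15.1%) and at day 7 alone 1697 (2.75%). They shared narrow widths, with medians of 502, 533 and 401 bp against 521 bp for the regions missing at day 28 alone. Regions missing at day 1 alone had relative excess medians of 0.777 in the untreated list, 0.289 at day 7 and 0.654 at day 28, whereas those missing at day 28 alone had 0.377, 0.385 and 0.325 in the lists that held them. Regions missing in the untreated list alone had a profile close to the latter, with 0.404, 0.378 and 0.308 at days 1, 7 and 28. Gene ends within 1 kb were present in 4.73%, 6.40% and 8.13% of these patterns, against 7.16% of the regions missing at day 28 alone.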

How the data were processed

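ATAC-seq peak lists of 4 samples of purified pancreatic epithelium, 1 library per group, were used, grouped by title. Per the submitters' processing notes, the tools were MACS2 2.1.0.20150731, Bowtie2 2.2.6, deepTools, SAMtools and cutadapt, on GRCm38 (mm10). The sources used here do not give options, read filters or any shift to the transposase cut site. Of the deposited columns, the authors' fold enrichment is a ratio of pileup to background at the summit, the authors' −log10 p and −log10 q measure the same enrichment, the deposited score is 10 times the −log10 q in 100% of peaks, and the last deposited column is the summit's offset. Read totals are unknown. Read as pileup plus 1 over background plus 1, with 1 background for each list, the fold gave pileups that were whole within 0.05 in 100% of peaks.

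Peaks on chromosomes 1 to 19 and X were merged at 1 bp of overlap, checked with bedtools 2.31.1, which gave 5157 members. Merging and background recovery were tested on simulated data. The highest peak of a list stood for a region. Each region took the nearest gene that codes for protein, if its span lay within 50 kb, from a RefSeq table of GRCm38.p6 that holds neither strand nor exons. Of 330 genes in 25 lists, 327 matched and Ctrc, Mx1 and Figf did not. Promoter windows and mature miRNAs were those of RefSeq (GRCm38.p6), and the promoter table covers part of the genes. Shares carry exact (Clopper-Pearson) 95% intervals that cover counting error only. The planned motif search in peaks needs a genome sequence, which was not used here, and promoter windows took its place.

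The members and gene lists were chosen with earlier results of these data known. Named were the 12 members with the highest lowest fold and the 12 with the highest scaled fold, the 15 genes with most members, the 10 genes with the highest share, up to 4 genes per list, endothelial genes with a member within 1 kb of a gene end, the longest runs, and promoters overlapping members. A few items that this rule selects are not reported here. The printed promoters and miRNAs, the day 1 high members and the genes named from them were singled out after their values were seen. Alternatives varied the overlap, the −log10 q, the scaled level, the gene link and the promoter coverage. With 1 library per group no test was made.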

Additional observations from a re-analysis of the deposited data

How the results depend on the processing

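Across 42 alternatives, 32 values stayed close to the reported one (counts within 1.5 times, shares within their exact interval) and 10 moved. Of the 32, the 4 that required a scaled fold at the day 28 floor could not differ, since no held region is below it. The count of 5157 regions was 9772 when untreated peaks were counted in place of merged regions and overlap had to cover at least 50% of the peak, 2 changes made together, 3228 with a −log10 q of at least 5 in the untreated, day 1 and day 7 lists, and 2411 with a scaled fold of at least 2 times the day 28 floor. The endothelial share of 13.2% was 8.13% at that −log10 q, where all genes gave 5.18%, and 28.3% between the members' quartiles of scaled fold, where all genes gave 16.6%. The TGF-beta and BMP share of 11.1% was 6.09% and 25.4% in the same settings. The acinar share of 0.952% was 0% when a day 28 peak within 500 bp counted as present, where all genes gave 6.15%, and 5.26% between the quartiles. The share near gene ends, 7.16% within 1 kb, was 2.21% within 250 bp, by construction of the smaller distance. The cause of the other moves was not tested. The quartile setting, the lowest scaled level, the settings without the day 1 list and the whole-window setting were chosen after seeing the data. The planned search with wider and narrower windows around peaks was not run, since no genome sequence was used here. No paired analysis was possible because each group has 1 library. The lowest pileup in the day 28 list was 9 over a background of 2.52, and the part of depth was not tested.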
